A study of Mus musculus with 4 samples.

Results

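The oligodendrocyte lineage transcription factors are described here across spots of brain sections from *Nf1*+/- mice, which carry 1 mutant copy of the neurofibromin gene. The members were chosen by symbol and are *Olig1*, *Olig2*, *Sox10*, *Nkx2-2*, *Sox8*, *Myrf*, *Zfp488*, *Nkx6-2* and *St18*, 9 of the 32285 genes counted. Visium, which counts the mRNA that tissue releases onto a grid of barcoded spots, was applied to 4 fresh frozen sections of 10 µm (sections 1 to 4). The genotype was the same in all 4 sections, so no comparison with wild-type brain was made. The labels name neither the *Nf1* allele nor the age, and it is not stated whether each of the 4 sections was from another mouse. Thus n counts sections. P-values measure only how differences between groups of spots, defined below, vary over these sections. That spread was estimated from all groups together and moderated over genes.

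Oligodendrocytes, which make the myelin of the brain, arise from oligodendrocyte precursor cells (OPCs). *Olig1* and *Olig2* (basic helix-loop-helix factors) and *Sox10* (an HMG-box factor) are present from the OPC to the mature oligodendrocyte and are commonly used to label the whole lineage. *Myrf* is switched on when the OPC differentiates, and its protein binds and activates myelin genes. *Nkx2-2* and *Nkx6-2* are homeodomain factors, *Sox8* is a close relative of *Sox10*, and *Zfp488* and *St18* encode zinc-finger proteins.

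The deposited values were raw counts of unique molecular identifiers (UMIs), each standing for 1 captured mRNA end, so levels of different genes can be set side by side without division by gene length. Spots with at least 500 UMIs were used, which kept 1537, 2358, 2294 and 1431 spots in sections 1 to 4 and left out between 1 and 26 spots a section. The sections held 19261710 to 37002379 UMIs and the median spot 8862.5 to 15296.5, with section 3 the shallowest. A spot covers several cells, so more cells of a type and more RNA per cell cannot be told apart in any result below. Between 427 and 1989 barcodes were shared by a pair of sections, which follows from the common barcode set of the slides. Genes that mark neurons, astrocytes and myelin were all present, as the label of brain requires, and summed myelin gene levels ran from 2616 to 4205 UMIs per 1000000 UMIs of the section (CPM).

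*Olig1* was by far the most abundant factor and *Zfp488* the least. *Olig1* was counted at 131, 107, 123 and 136 CPM in sections 1 to 4 (mean 124 ± 12.7, SD, n = 4), from 12334 UMIs in all. It was found in 70.7% ± 7.55 of spots. Thinning to 5000 UMIs a spot, with the 72, 143, 427 and 207 shallower spots of sections 1 to 4 left out, gave 42.3% ± 2.44.

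The next 4 factors had similar levels. *Sox10* stood at 22.3, 19.1, 27.3 and 27.6 CPM (24.1 ± 4.09), and *Olig2* at 23.0, 20.6, 23.5 and 26.0 CPM (23.3 ± 2.20). *Nkx6-2* stood at 22.6, 13.2, 23.4 and 22.5 CPM (20.4 ± 4.83), and *Myrf* at 24.1, 16.6, 18.7 and 20.04 CPM (19.9 ± 3.14). The ranges of these 4 factors overlapped, so their order is not separated from the spread between sections. Each had a UMI in 21.5% to 25.2% of spots on average.

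*Sox8* followed at 15.4, 14.8, 11.9 and 13.7 CPM (13.9 ± 1.55), a range below that of *Myrf* but overlapping that of *Nkx6-2*. *St18* (4.55 ± 0.869 CPM) and *Nkx2-2* (4.51 ± 1.41 CPM) were scarce and overlapped, with 449 and 430 UMIs in all. *Zfp488* was at 2.01 ± 0.272 CPM, from 42, 66, 47 and 45 UMIs in sections 1 to 4. No single spot held more than 15 UMIs of *Olig1* or 6 of any other factor. *Nkx2-2* varied most among the sections, by 2.13 times between section 2 (2.97 CPM) and section 4 (6.33 CPM), and *Olig2* least, by 1.26 times. Section 2 was lowest for 8 of the 9 factors and also had the lowest myelin gene level.

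**Figure D1:**
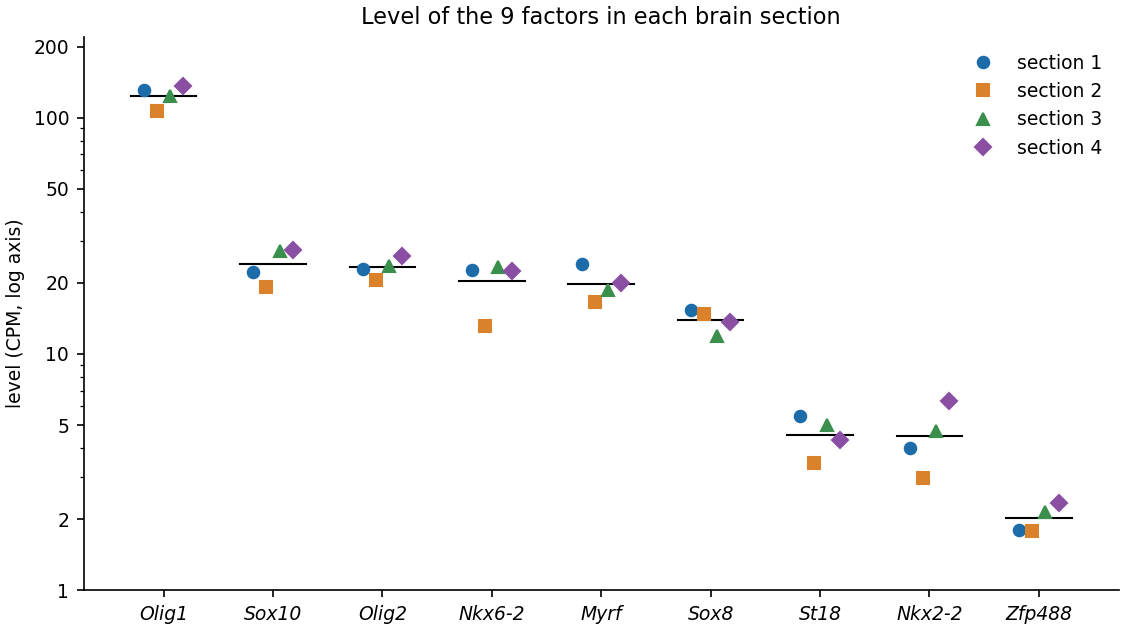
Level of each factor in each of the 4 sections, in CPM on a log axis, with a horizontal line at the mean over sections. *Olig1* lies at 107 to 136 CPM, above every other factor, and *Zfp488* lies lowest, at 1.78 to 2.34 CPM.

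*Olig2* and *Olig1* are neighbours on chromosome 16 (GRCm38.p6, chr16:91225550-91228677 and chr16:91269769-91271939), with 41.1 kb between them. *Nkx6-2* lies at chr7:139579376-139582797, where its first 277 bases by coordinate overlap the annotated span of *Inpp5a*, and *Olig2* and *Nkx2-2* also overlap other annotated genes. Whether the counting used strand is not given in the sources used here, so counts of these 3 members may hold reads of their neighbours. RefSeq promoters (GRCm38.p6, the 250 bases before a transcript start) were matched for 5 of the 9 members, *Olig2*, *Nkx2-2*, *Sox8*, *Zfp488* and *Nkx6-2*. Those of *Nkx2-2* and *Zfp488* lie inside the annotated span of the gene, which reaches further upstream. The promoters of *Olig2*, which is higher in both OPC-rich and myelin-rich spots below, and of *Nkx6-2*, which had the largest difference in myelin-rich spots, are printed to show the start regions of the 2 patterns. Capitals mark matches to 4 short motifs searched on both strands, AACAAT (bound by SOX proteins), CAGCTG (an E-box), CTGGCAC (bound by MYRF) and TATAAA (the TATA box).
*Olig2*, chr16:91225300-91225549, plus strand: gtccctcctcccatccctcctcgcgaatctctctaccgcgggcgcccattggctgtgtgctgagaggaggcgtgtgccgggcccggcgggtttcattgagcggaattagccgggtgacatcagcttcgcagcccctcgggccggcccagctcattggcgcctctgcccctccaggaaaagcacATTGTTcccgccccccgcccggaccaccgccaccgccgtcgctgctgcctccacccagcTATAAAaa
*Nkx6-2*, chr7:139582798-139583047, minus strand: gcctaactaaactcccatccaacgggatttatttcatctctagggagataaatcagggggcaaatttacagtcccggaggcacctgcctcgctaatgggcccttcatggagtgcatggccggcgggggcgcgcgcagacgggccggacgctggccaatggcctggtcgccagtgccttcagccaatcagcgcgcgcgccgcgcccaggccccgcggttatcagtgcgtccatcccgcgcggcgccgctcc
The *Olig2* promoter held ATTGTT, the SOX motif read on the opposite strand, with its first base 67 bases before the start, and TATAAA beginning 8 bases before the start. The other 4 promoters held none of the 4 motifs. Of 27025 promoters of the same length, 9.65% held the SOX motif, 12.8% the E-box, 4.14% the MYRF motif and 13.0% the TATA motif. Such matches describe the letters and are not binding sites.

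To separate precursor-rich from myelin-rich tissue, each spot was scored by the excess of UMIs of 8 OPC markers (*C1ql1*, *Cacng4*, *Cspg4*, *Lhfpl3*, *Matn4*, *Neu4*, *Pcdh15* and *Pdgfra*) and of 8 myelin genes (among them *Mbp*, *Mog*, *Mag*, *Cnp* and *Mobp*) over the number its total predicts. No member is among these 16 genes. The OPC markers had 2434 to 4336 UMIs a section against 70391 to 98708 of the myelin genes, so the OPC score carries the larger relative counting error. The top 10% of spots of each section by each score were called high. OPC-marker-high only spots numbered 125, 194, 192 and 113, myelin-high only spots the same, spots high for both 28, 41, 37 and 30, and spots high for neither 1259, 1929, 1873 and 1175 in sections 1 to 4. Sums per section and group entered edgeR's quasi-likelihood fit, blocked by section, and a gene was called at an adjusted p-value under 0.05 (Benjamini-Hochberg, 11264 genes tested). All 9 factors passed the filter on low counts. The genes of a score are high in its own group because the grouping fixes it. In myelin-high only spots the summed OPC marker level was 90.9 to 132 CPM, against 77.9 to 104 CPM in neither spots. There 2 of 8 OPC markers were called higher (log2 fold changes of 0.17 to 0.96 over the 8), against 17.0% of all genes. In OPC-marker-high only spots the summed myelin level was 2270 to 3894 CPM, against 2115 to 3216 CPM in neither spots. No single myelin gene was called there by edgeR or DESeq2 (log2 fold changes of 0.03 to 0.22), where edgeR called 0.657% of all genes higher and 0.684% lower. At an unadjusted p under 0.05 in edgeR stood 1 of 8 myelin genes, against 1148 of all 11264 genes.

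Every one of the 9 factors was higher in myelin-high only spots than in spots high for neither. The differences ran from 2.32-fold for *Sox8* to 7.86-fold for *Nkx6-2*. All 9 passed the test, against 17.0% of all genes called higher and 14.4% called lower. Of the calls over all genes 54.2% were higher, and 41.4% when counts were scaled to total UMIs only. With that scaling all 9 factors were again called higher, against 1599 of all 11264 genes. For 8 of 9 factors, all except *Nkx2-2*, every section's level in the myelin-high only spots lay above every section's level in the neither spots, which was so for 12.9% of all genes. The median log2 fold change was 2.35 over the members and -0.01 over all genes.

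*Nkx6-2*, a homeodomain factor of maturing oligodendrocytes, was counted at 93.3, 71.9, 163 and 148 CPM in the myelin-high only spots of sections 1 to 4 and at 17.8, 10.4, 16.4 and 18.0 CPM in the neither spots. The 2 ranges were far apart in all sections (log2 fold change 2.98 ± 0.13, SE, adjusted p = 2.77e-17). *Myrf*, the activator of myelin genes, was at 106, 70.4, 118 and 142 CPM against 17.7, 14.0, 14.3 and 15.4 CPM. Section 2 had the lowest *Myrf* level of the myelin-high only spots, still well above every neither level (2.85 ± 0.15, adjusted p = 1.88e-15).

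*St18*, a zinc-finger factor, was at 19.6, 13.0, 21.3 and 37.9 CPM against 4.39, 3.04, 3.91 and 3.30 CPM (2.58 ± 0.27, adjusted p = 9.13e-09). *Zfp488* was at 4.67, 5.36, 11.8 and 14.0 CPM against 1.68, 1.48, 1.56 and 2.00 CPM (2.35 ± 0.41, adjusted p = 3.96e-05). Its myelin-high only levels rested on 5, 7, 10 and 7 UMIs, so their counting error is wide, but all 4 lay above the neither spots.

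The 3 factors of the whole lineage were 5.51-fold (*Sox10*), 4.26-fold (*Olig2*) and 4.11-fold (*Olig1*) higher. *Sox10* was at 78.4, 65.0, 130 and 134 CPM in myelin-high only spots and 17.1, 15.9, 20.7 and 21.7 CPM in neither spots (2.46 ± 0.12, adjusted p = 5.42e-16). *Olig2* was at 71.8, 54.3, 86.2 and 93.7 CPM against 17.8, 17.5, 18.4 and 20.6 CPM (2.09 ± 0.13, adjusted p = 7.76e-14). *Olig1* was at 393, 311, 390 and 502 CPM against 103, 91.1, 99.2 and 114 CPM (2.04 ± 0.09, adjusted p = 1.15e-17). In all 3, section 2 had the lowest and section 4 the highest level of the myelin-high only spots.

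*Nkx2-2* and *Sox8* differed less. *Sox8* was at 34.5, 23.0, 23.6 and 33.9 CPM against 13.5, 14.5, 10.6 and 12.2 CPM (1.21 ± 0.20, adjusted p = 1.68e-05). *Nkx2-2* was at 7.46, 4.59, 15.3 and 14.0 CPM, from 8, 6, 13 and 7 UMIs, against 3.21, 2.61, 3.96 and 6.13 CPM (1.42 ± 0.35, adjusted p = 0.0019). The *Nkx2-2* ranges overlapped, and its call was lost without section 3 (1.14, adjusted p = 0.0576). The other 8 calls held in each of the 18 alternatives in which the factor was tested.

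Only *Olig1*, *Olig2* and *Sox10*, the 3 factors of the whole lineage, were called higher in OPC-marker-high only spots than in spots high for neither. They were 1.95-fold (*Olig1*), 2.33-fold (*Olig2*) and 1.95-fold (*Sox10*) higher. *Myrf*, *Nkx6-2*, *St18* and *Zfp488* had log2 fold changes of 0.13 to 0.36 there and were not called. These 3 of 9 calls compare with 0.657% of all genes called higher and 0.684% called lower, and no member was called lower. Both comparisons use the same neither spots, and the OPC score rests on far fewer UMIs, so their values are set side by side only.

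*Olig2* had the largest difference of the 9, at 40.7, 35.8, 45.2 and 52.4 CPM in the OPC-marker-high only spots of sections 1 to 4 against 17.8, 17.5, 18.4 and 20.6 CPM (log2 fold change 1.22 ± 0.11, SE, adjusted p = 1.88e-08). *Olig1* was at 217, 164, 206 and 205 CPM against 103, 91.1, 99.2 and 114 CPM (0.96 ± 0.08, adjusted p = 3.44e-09). *Sox10* was at 37.5, 26.9, 38.7 and 45.1 CPM against 17.1, 15.9, 20.7 and 21.7 CPM (0.96 ± 0.12, adjusted p = 8.93e-06). No OPC-marker-high only level overlapped a neither level in these 3 factors. By p-value, *Olig1*, *Olig2* and *Sox10* were 9th, 10th and 12th of the 11264 genes, a list that the score's own markers head. The *Sox10* call was lost after thinning to 5000 UMIs (0.71, adjusted p = 0.125) and without the section block (0.96, adjusted p = 0.0788).

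*Nkx2-2* was at 9.52, 6.14, 6.00 and 6.09 CPM against 3.21, 2.61, 3.96 and 6.13 CPM, from 57 UMIs in all in the OPC-marker-high only spots. It was higher in sections 1 to 3 and level in section 4 (0.89 ± 0.27, adjusted p = 0.116). It passed the test without section 4 (1.16, adjusted p = 0.0406), with equal weights of the markers (adjusted p = 0.0386) and with no filter on low counts (adjusted p = 0.0379). It also passed with overlapping groups (adjusted p = 0.0205), whose reference spots differ, as given below. *Sox8* was at 21.1, 15.0, 18.0 and 18.9 CPM against 13.5, 14.5, 10.6 and 12.2 CPM (0.50 ± 0.17, adjusted p = 0.177). Its 2 ranges did not overlap, as for *Olig1*, *Olig2* and *Sox10*, which makes 4 of 9 factors against 2.24% of all genes.

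The 4 remaining factors overlapped between the 2 groups. *Myrf* was at 31.7, 13.3, 13.1 and 22.5 CPM against 17.7, 14.0, 14.3 and 15.4 CPM (0.36 ± 0.18, adjusted p = 0.505), above its neither level in sections 1 and 4 but not in sections 2 and 3. *Nkx6-2* was at 21.1, 13.0, 17.4 and 18.9 CPM against 17.8, 10.4, 16.4 and 18.0 CPM (0.19 ± 0.16, adjusted p = 0.785). *St18* (0.32 ± 0.31, adjusted p = 0.833) and *Zfp488* (0.13 ± 0.46, adjusted p = 0.975) rested on 37 and 15 UMIs in the OPC-marker-high only spots, and their errors are wide. With overlapping groups, all OPC-marker-high spots, those high for both included, were set against all other spots. The reference then holds the myelin-high only spots as well as the neither spots. In that comparison 7 of 9 factors were called, *Myrf* (0.56) and *Nkx6-2* (0.50) among them, and 2.82% of all genes were called higher.

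**Figure D2:**
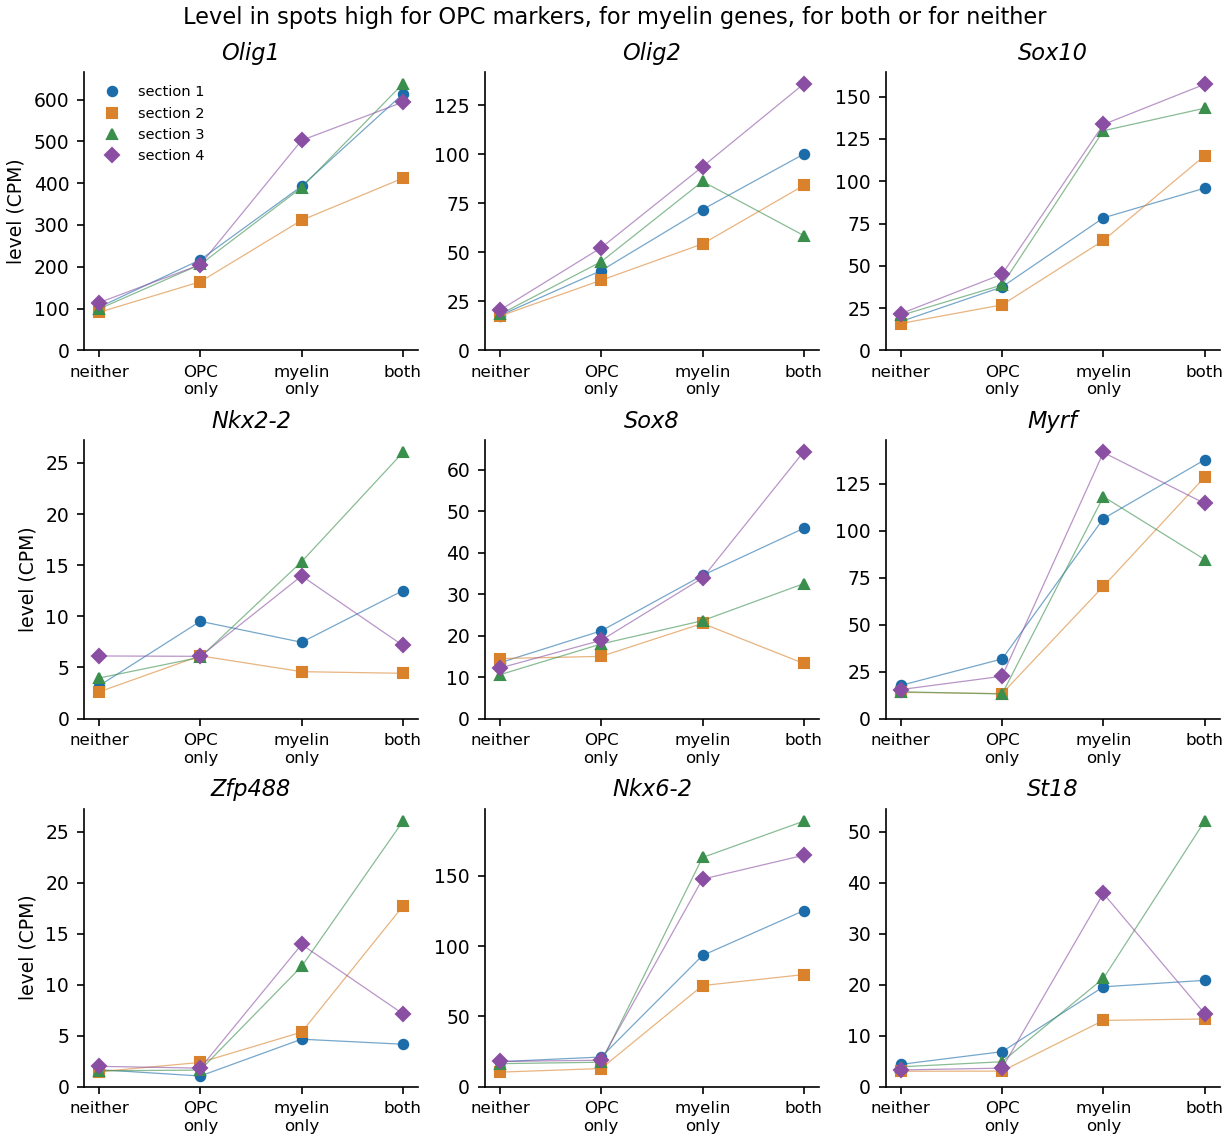
Level of each factor in CPM in spots high for neither score, for OPC markers only, for myelin genes only and for both, with 1 point per section joined by lines and each vertical axis starting at 0. *Olig1*, *Olig2* and *Sox10* step up from neither to OPC only and again to myelin only, whereas *Myrf*, *Nkx6-2*, *Zfp488* and *St18* step up mainly at myelin only.

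Set directly against each other, OPC-marker-high only spots held less of 8 of the 9 factors than myelin-high only spots, all except *Nkx2-2*. The difference was 6.88-fold for *Nkx6-2*, 5.62-fold for *Myrf*, 4.79-fold for *St18* and 4.65-fold for *Zfp488*, and 2.83-fold for *Sox10*, 2.11-fold for *Olig1* and 1.83-fold for *Olig2*. *Sox8* was 1.64-fold lower. These 8 of 9 factors passed the test as lower, and their ranges did not overlap, against 12.1% of all genes called lower, 9.22% called higher and 9.06% with ranges that did not overlap on the lower side. Of these calls over all genes 43.3% were higher, and 56.9% with scaling to total UMIs. With that scaling the same number of factors was called lower, against 1184 of all 11264 genes. *Nkx2-2* was not called (-0.53 ± 0.37, adjusted p = 0.349) and was higher in the OPC-marker-high only spots of sections 1 and 2 and lower in those of sections 3 and 4. The 2 groups are not equally sharp selections. OPC markers averaged 412 CPM in OPC-marker-high only spots against 93.7 CPM in neither spots. Myelin genes averaged 21969 CPM in myelin-high only spots against 2796 CPM in neither spots. The part of this in the direct differences was not tested.

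In log2 terms the direct difference was -2.78 ± 0.16 for *Nkx6-2* (adjusted p = 6.44e-14) and -2.49 ± 0.18 for *Myrf* (adjusted p = 8.57e-12). It was -0.87 ± 0.14 for *Olig2* (adjusted p = 1.89e-05), a call that thinning removed (-0.50, adjusted p = 0.118). The *Sox8* call (-0.71 ± 0.22, adjusted p = 0.0201) was lost without the section block and without section 1, 3 or 4 (adjusted p from 0.0559 to 0.105 without a section).

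**Figure D3:**
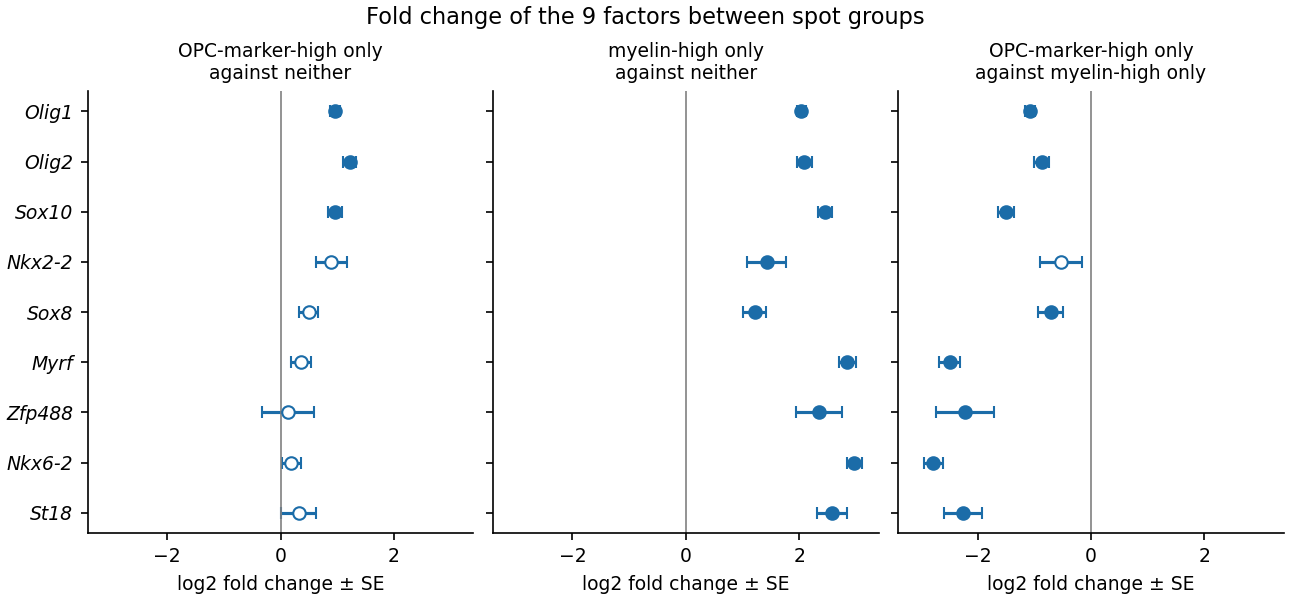
Log2 fold change of each factor ± SE in the 3 comparisons of spot groups, with filled points for an adjusted p-value under 0.05 and open points otherwise. All 9 points are filled for myelin-high only against neither, but only those of *Olig1*, *Olig2* and *Sox10* for OPC-marker-high only against neither.

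Spots high for both scores were few and shallow, with 28 to 41 spots a section and median totals of 3870 to 8290.5 UMIs. Over sections, *Olig1* averaged 564 ± 103 CPM there (SD, n = 4) against 399 ± 78.5 CPM in myelin-high only, 198 ± 23.0 CPM in OPC-marker-high only and 102 ± 9.61 CPM in neither spots. *Olig2* averaged 94.7 ± 32.4, 76.5 ± 17.4, 43.5 ± 7.04 and 18.6 ± 1.38 CPM in the same order. *Myrf* averaged 116 ± 23.2 CPM in spots high for both and 109 ± 29.7 CPM in myelin-high only spots. For *Olig1*, *Olig2* and *Myrf* the ranges of these 2 groups over sections overlapped, and no test compared the groups. *Nkx2-2* and *Zfp488* had 9 and 10 UMIs in all in spots high for both, and nothing is read from them.

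The factors also differed in how concentrated they were. The myelin-high spots, with or without OPC markers, held 4.40% of all UMIs on average but 25.6% ± 4.69 of those of *Nkx6-2*, 23.9% ± 3.52 of *Myrf*, 21.2% ± 4.27 of *St18* and 19.6% ± 6.93 of *Zfp488*. They held 18.7% ± 2.99 of *Sox10*, 15.0% ± 2.76 of *Olig1*, 14.9% ± 3.08 of *Olig2*, 10.2% ± 4.76 of *Nkx2-2* and 9.69% ± 2.97 of *Sox8* UMIs. The OPC-marker-high spots held 8.97% of all UMIs, and 18.4% ± 1.98 of those of *Olig2*, the largest share, against 12.2% ± 0.745 for *Nkx6-2*. Most UMIs of every factor therefore lay outside the spots that either score picked.

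Along all spots ranked by myelin genes, every factor had its highest mean level in the last decile. Relative to the section as a whole, *Nkx6-2* stood at 0.293 ± 0.034 in the lowest decile, 2.11 ± 0.11 in the 9th and 5.95 ± 1.2 in the 10th (SD, n = 4). *Myrf* stood at 0.349 ± 0.069, 2.00 ± 0.21 and 5.56 ± 1.0. *Olig1* had a higher floor and a lower top, at 0.628 ± 0.11, 1.51 ± 0.078 and 3.43 ± 0.33, and *Sox8* was the flattest, at 0.875 ± 0.12, 1.22 ± 0.076 and 2.22 ± 0.62. The lowest decile by myelin genes still held 1345 UMIs of *Olig1* and 99 of *Nkx6-2*.

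Along spots ranked by OPC markers, the profiles were shallower. That ranking rests on far fewer UMIs than the myelin ranking, and the part of this in the shallower profiles was not tested. *Olig2* stood at 0.627 ± 0.095 in the lowest decile, 1.31 ± 0.17 in the 9th and 2.05 ± 0.16 in the 10th, and *Olig1* at 0.649 ± 0.050, 1.23 ± 0.099 and 1.85 ± 0.14. *Nkx6-2* reached 1.36 ± 0.06 and *Myrf* 1.40 ± 0.34 in the 10th decile, which here includes the spots that were also high for myelin genes. A spot without a UMI of the OPC markers scores lower the deeper it is, so depth enters the low end of this ranking. These profiles are descriptions, with no test.

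**Figure D4:**
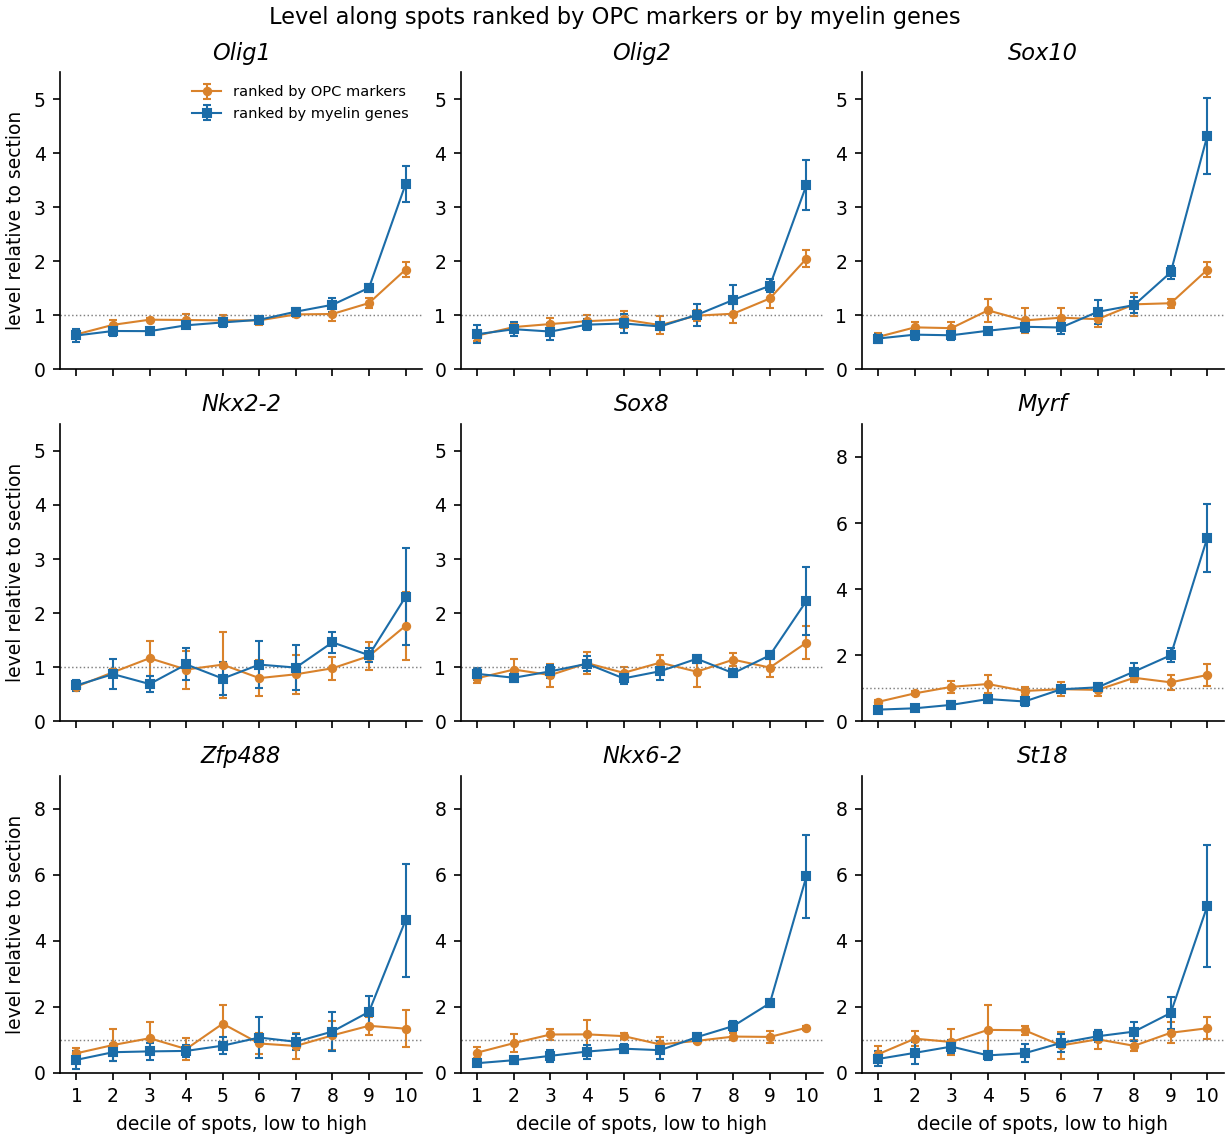
Level of each factor in deciles of the spots of a section, ranked from low to high by OPC markers or by myelin genes, relative to the whole section (dotted line at 1), as mean ± SD over 4 sections. The 10th decile by myelin genes is the highest point for every factor, from 2.22 for *Sox8* to 5.95 for *Nkx6-2*, and vertical axes differ between the panels.

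Pearson correlations of each factor with summed markers across single spots were computed within each section on the excess of UMIs over the number the spot's total predicts. The spots of a section share 1 library, and the values are given as a description. Sparse counts pull r toward 0, so a value of 1 factor is not set against that of another of different abundance. *Olig1* correlated at a mean r of 0.53 with myelin genes (0.49 to 0.59 over 4 sections), 0.35 with newly formed oligodendrocyte markers and 0.27 with OPC markers. When the myelin-high spots were left out, its r with myelin genes was 0.29 and that with OPC markers stayed at 0.27. *Olig2* had 0.28 with myelin genes and 0.18 with OPC markers, which became 0.14 and 0.19 without the myelin-high spots. For *Nkx6-2* these were 0.45 and 0.07, then 0.29 and 0.02, and for *Myrf* 0.44 and 0.09, then 0.26 and 0.06.

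*Sox10* had a mean r of 0.38 with myelin genes and 0.15 with OPC markers, *St18* of 0.21 and 0.03, and *Zfp488* of 0.13 and 0.02. *Sox8* had 0.11 and 0.07 and *Nkx2-2* 0.08 and 0.06, low values that sparse counts may have pulled toward 0. All 9 factors had a negative mean r with neuron markers, from -0.18 for *Olig1* to -0.03 for *Zfp488*. With astrocyte markers mean r ran from 0.03 (*Zfp488*) to 0.16 (*Olig1*), and with microglia markers from 0.01 (*Zfp488*) to 0.10 (*Olig1*). For *Nkx6-2* (0.10), *Myrf* (0.09), *Nkx2-2* (0.07), *St18* (0.06) and *Zfp488* (0.03) the r with astrocyte markers was at or above that with OPC markers. In neither spots the OPC list averaged 93.7 CPM, the astrocyte list 593 CPM and the myelin list 2796 CPM. Of these lists, r with OPC markers is thus pulled toward 0 most. With endothelial, choroid plexus, ependymal and fibroblast markers every mean r was between -0.02 and 0.05. Over 9095 genes with at least 200 UMIs in every section, the median of the mean r with the myelin score was -0.01 and the 95th percentile 0.13, and with the OPC score 0.00 and 0.05. *Nkx2-2*, *St18* and *Zfp488* had fewer than 200 UMIs in every section, so these percentiles are no yardstick for them.

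**Figure D5:**
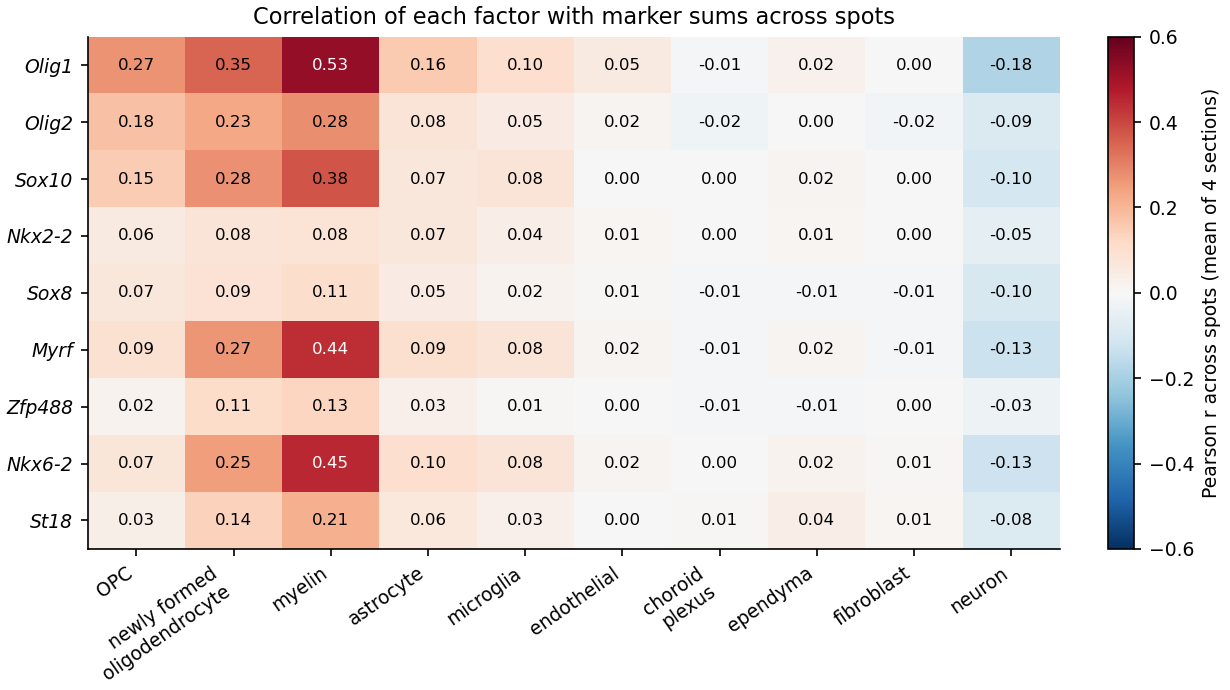
Mean Pearson r over 4 sections between each factor (rows) and the summed markers of 10 lists (columns) across spots, red for positive and blue for negative. The myelin column holds the highest values, up to 0.53 for *Olig1*, and the neuron column the lowest.

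Among the members, *Olig1* had a mean r of 0.28 with *Olig2* (0.20 to 0.35 over sections), 0.28 with *Nkx6-2* and 0.28 with *Sox10*. *Sox10* with *Myrf* had 0.21, *Myrf* with *Nkx6-2* 0.20 and *Sox8* with *Zfp488* 0.00, and these pairs differ in abundance, so no order is read from them. Of the spots with an *Olig2* UMI, 87.8%, 79.8%, 73.5% and 84.3% in sections 1 to 4 also had one of *Olig1*, against 75.7%, 75.1%, 59.6% and 72.5% of all spots. Of those with an *Olig1* UMI 29.7%, 27.2%, 22.5% and 29.6% had one of *Olig2*, against 25.6%, 25.6%, 18.3% and 25.4% of all spots. A deeper spot is more likely to hold a UMI of either gene, and these shares were not adjusted for depth.

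The 3 genes with the highest mean r were mostly myelin genes. Sparse counts pull r toward 0, so this ranking favours abundant genes such as *Mbp* (153356 UMIs in all) over sparse ones such as *Cspg4* (1006 UMIs). The part of abundance in the ranking was not tested. *Cnp*, which encodes a phosphodiesterase of myelin, was among the 3 for *Olig1* (mean r of 0.48), *Olig2* (0.25) and *Sox10* (0.35). *Mbp*, myelin basic protein, was among them for *Olig1* (0.47), *Nkx6-2* (0.41) and *St18* (0.19), and *Mal*, a membrane protein of myelin, for *Myrf* (0.39) and *Sox8* (0.10). *Fth1*, a ferritin chain, was among them for *Sox10* (0.34), *Myrf* (0.39), *Nkx6-2* (0.42) and *Zfp488* (0.13). *Olig1* was among the 3 for *Olig2* (0.28). *Nkx2-2* was nearest to *Car2* (0.09), *Gpr17* (0.09) and *Olig1* (0.08). These small values, and the similarly small ones of *Sox8* and *Zfp488*, are no finding.

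Markers of newly formed oligodendrocytes did not all follow 1 pattern in the same comparisons. Of 8, 7 were tested. In myelin-high only spots 6 were called higher (17.0% of all genes) and in OPC-marker-high only spots 1 (0.657%). In the direct comparison 4 of the 7 were called lower (12.1% of all genes) and 0 higher. For *Itpr2*, *Tmem163* and *Rras2*, mean log2 ratios to neither spots over sections were 0.80, 0.78 and 0.43 in myelin-high only spots. In OPC-marker-high only spots they were 0.38, -0.20 and -0.14. The section ranges of *Itpr2* lay above those of neither spots in both comparisons, against 12.9% and 2.24% of all genes. Those of *Tmem163* and *Rras2* overlapped in both. *Enpp6* (3.71 ± 0.20), *Bcas1* (2.50 ± 0.10) and *Cnksr3* (2.02 ± 0.32) were higher in myelin-high only spots by more than 2 on the log2 scale, and in OPC-marker-high only spots they had 0.47, 0.23 and 0.12. *Gpr17*, a receptor of committed precursors, was the 1 marker called in both, at 1.24 ± 0.18 in myelin-high only and 1.52 ± 0.13 in OPC-marker-high only spots, and the difference between the 2 groups did not pass the test (0.28 ± 0.18, adjusted p = 0.30).

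Of 31 other listed regulators of the lineage, 29 were tested. In myelin-high only spots 10 of them were called higher and 2 lower, against 17.0% and 14.4% of all genes, with a median log2 fold change of 0.24. The largest were *Tfeb* (1.96 ± 0.25), a lysosomal regulator, *Chd7* (1.82 ± 0.28), a chromatin remodeller, *Zeb2* (1.13 ± 0.13) and *Tcf7l2* (1.08 ± 0.30), a transcription factor of the Wnt pathway. *Hdac1*, a histone deacetylase, was nearly as large (1.08 ± 0.17). *Sox11*, a factor of immature neural cells, was lower (-0.64 ± 0.23), as was *Id2* (-0.24 ± 0.09). In OPC-marker-high only spots none of the 29 was called by edgeR or DESeq2, where edgeR called 0.657% of all genes higher and 0.684% lower. At an unadjusted p under 0.05 in edgeR stood 9 of the 29, 2 of them lower, against 1148 of all 11264 genes. The nearest to a call was *Sox2*, a factor of neural stem cells (0.40 ± 0.11, adjusted p = 0.056).

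Compared with myelin-high only spots, 6 of the 29 were lower and 1 higher in OPC-marker-high only spots, against 12.1% and 9.22% of all genes. *Tfeb* (-1.89 ± 0.31), *Chd7* (-1.68 ± 0.34), *Zeb2* (-1.24 ± 0.15) and *Hdac1* (-0.97 ± 0.20) were the largest falls, and *Sox11* was the 1 higher (0.93 ± 0.26). Of the 3 dimer partners of OLIG proteins, *Tcf3* (0.69 ± 0.19) and *Tcf12* (0.66 ± 0.17) were called in myelin-high only spots and *Tcf4* (0.24 ± 0.11, adjusted p = 0.0916) was not, and none was called in OPC-marker-high only spots. Of 6 paralogues of members, 3 were tested. *Sox9*, a relative of *Sox8* and *Sox10* found in astrocytes, was higher in myelin-high only spots (0.62 ± 0.22), *Myt1l*, a neuronal relative of *St18*, was lower (-0.45 ± 0.10), and *Myt1* was not called (-0.33 ± 0.42).

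Markers of other cell types also differed in the myelin comparison, in which 17.0% of all genes were called higher and 14.4% lower. The endothelial list differed little, with a median log2 fold change of 0.13 (-0.11 to 0.49). In myelin-high only spots 5 of 8 astrocyte markers (*Gfap* by 2.71 ± 0.21), 7 of 8 microglia markers, 2 of 6 endothelial, 3 of 9 tested choroid plexus and 2 of 5 tested ependymal markers were called higher, and 7 of 8 neuron markers were lower. Summed over the list, neuron markers ranged from 2041 to 3434 CPM in myelin-high only and from 4009 to 5405 CPM in neither spots, microglia markers from 511 to 639 against 347 to 392 CPM, and astrocyte markers from 739 to 999 against 546 to 627 CPM. Myelin-high only spots were also shallower, with median totals of 3566.5 to 7718 UMIs against 9475 to 16199 in neither spots. In OPC-marker-high only spots none of the 16 astrocyte or microglia markers was called by edgeR or DESeq2, where edgeR called 0.657% of all genes higher and 0.684% lower. At an unadjusted p under 0.05 in edgeR stood 6 of the 16, all higher, against 1148 of all 11264 genes. There 1 neuron marker was higher (*Gad2*, 0.34 ± 0.07) and 1 lower (*Slc17a7*, -0.77 ± 0.15). All 5 tested fibroblast markers had positive log2 fold changes (0.34 to 0.74, median 0.66), and 1 was called (*Dcn*, 0.74 ± 0.19). In myelin-high only spots the fibroblast median was 0.44 (-0.12 to 0.75) with 0 called. Median totals of OPC-marker-high only spots were 8536.5 to 15282 UMIs. With every spot thinned to 5000 UMIs and shallower spots left out, 7 factors were tested. Of these, 2 were called higher in OPC-marker-high only spots (0.175% of all genes), 7 higher in myelin-high only spots (10.0% of all genes) and 6 lower in the direct comparison (6.06% of all genes). Leaving out spots with UMIs of at least 3 choroid plexus markers left the same number of factors called in each comparison, 3, 9 and 8. Over all 11197 genes tested then, 118, 1898 and 1325 were called in the same directions. The part of the other cell types in the differences of the 9 factors was not tested.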

How the data were processed

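Reads had been run through Space Ranger 1.3.1 (genome mm10, per the submitters' processing notes), and the authors deposited its raw UMI counts for every gene and spot, not normalized. Spots with at least 500 UMIs were used. A spot's score was the excess of the list's UMIs over expectation, scaled by the root of the expectation. The 16 sums per section and spot group were filtered with filterByExpr, scaled by TMM and fitted by quasi-likelihood in edgeR 4.0.16 (R 4.3.3) with a term for section. P-values were adjusted by Benjamini-Hochberg over 11264 genes. The procedure was run on simulated counts with a common spread, no section effects and changes in the myelin-high only sums alone. That run does not cover the pairing of sums within a section or the OPC comparison. The study's methods name Loupe Browser as the tool for these counts and state no test, so the test was chosen here. Standard errors were derived from the log2 fold change and the F statistic. The groups of a section come from 1 piece of tissue, which pairs them, and across genes the residuals of 2 sums of a section had r of 0.059 to 0.63.

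The 9 members, the marker and regulator lists and the tests were chosen with earlier results of these data known. The text names the members, the OPC, newly formed oligodendrocyte and myelin genes, the 4 called regulators with the largest change in each comparison, and per member the 3 genes of highest mean r among those with at least 200 UMIs in every section. *Hdac1*, *Id2*, *Sox2*, *Sox11*, *Gfap*, *Gad2*, *Slc17a7* and *Dcn* were named after their values were seen, and 1 gene that the rule names is not reported here. CPM are UMIs per 1000000 of the section or group. Intervals were not printed for counts, and the counts per section stand beside low values instead. Depth was 19261710 to 37002379 UMIs a section. Alternatives were other shares of spots, other marker sets, equal weights, overlapping groups, all spots, thinning, DESeq2 1.42.0, scaling to total UMIs, fits without the filter or the block, and leaving out choroid plexus-marker spots or 1 section. Overlapping groups set all spots high by a score against all other spots of the section, not against the neither spots. Spot positions, images and the outlines of regions were not used here, nor were the study's other experiments.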

Additional observations from a re-analysis of the deposited data

Results flagged for a closer look

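Of 45 values compared across the 4 sections (level, share of spots and 3 differences for each factor), 3 had 1 section far from the others by Dixon's test, where chance gives about 1 in 20. *Nkx6-2* was lowest in section 2, at 13.2 CPM against 22.5 to 23.4 CPM in the other sections. *Olig2* had a UMI in 18.3% of spots in section 3, the shallowest section, against 25.4% to 25.6% in the others. For *Olig1*, the log2 difference of OPC-marker-high only from myelin-high only spots was -1.29 in section 4 against -0.92 to -0.86 in the others.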

How the results depend on the processing

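The number of factors called stayed within 1.5 times of 3 (OPC-marker-high only), 9 (myelin-high only) and 8 (direct comparison) in every alternative run, except that overlapping groups called 7 in the first and allow no direct comparison. Without each section in turn the factors called were 3 to 4, 8 to 9 and 7 to 8. Thinning left 7 factors tested and called 2, 7 and 6, and the top 5% of spots left 8 tested. In OPC-marker-high only spots 3 factors that were not called changed sign with the setting: *Zfp488* (-0.093 with equal weights, -0.23 to 0.32 without a section in turn, lowest without section 2), *Nkx6-2* (-0.0032 with the 7 other OPC markers, -0.029 thinned) and *St18* (-0.020 with *Pdgfra* alone).

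Counts over all genes depended more on the setting. For OPC-marker-high only spots, 74 genes were called higher and 77 lower, against 137 and 230 with the top 20% of spots, 16 and 12 thinned, 118 and 128 without choroid plexus-marker spots, 402 and 434 with overlapping groups, 39 and 25 by DESeq2, 143 and 169 with no filter, 15 and 0 with no block, and 30 to 65 and 18 to 79 without a section. Those called lower were 46 with the top 5% of spots, 1 with *Pdgfra* alone and 50 with equal weights. For myelin-high only spots, 1913 higher and 1617 lower became 917 and 637 thinned, the lower ones 1055 with no block, and 1388 to 1757 and 1001 to 1595 without a section. For the direct comparison, 1039 higher and 1361 lower became 220 and 554 thinned, the higher ones 1561 with total-UMI scaling and 481 with no block, and 461 to 1077 and 903 to 1317 without a section. Thinning leaves out shallower spots and most UMIs, and the other causes were not tested. With no filter the median over all genes in the myelin comparison shifted by -0.18 on the log2 scale. *Nkx2-2*, *St18* and *Zfp488* had few UMIs a group, which limits their precision.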
